A study of Homo sapiens with 26 samples.

Results

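The genes described here are the inhibitors of cyclin-dependent kinases (CDKs) of the CIP/KIP and INK4 families, chosen by name and not by any measured value. The rule names 7 genes, of which 6 have a probe under their symbol on the array: CDKN1A, CDKN1B and CDKN1C of the CIP/KIP family, and CDKN2A, CDKN2B and CDKN2D of the INK4 family. CDKN2C was not analysed here. Together the 6 genes hold 11 of 22177 probes. Of these 11 probes, 9 passed the filter on dim probes (an intensity above 10 on at least 3 of 26 arrays) and were tested among 12159. The probes that did not pass, CDKN2B probe 8770 and CDKN2D probe 15520, were never above 10 on any array.

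HCT116 is a human colon adenocarcinoma cell line, and the study used an isogenic pair of it, 1 with p53 intact (labelled wild type, WT) and 1 with p53 knocked out (labelled knockout, KO). The cells grew in McCoy medium with serum and were left untreated or exposed to leptomycin B, an inhibitor of the nuclear export receptor XPO1, at 2 or 20 nM for 16 h, and their total RNA was hybridised to Illumina bead arrays, 1 array per sample. The arrays fall into 2 slide series. Series 1 holds untreated replicates 4 to 6 of each label and the 3 arrays per label at 20 nM. Series 2 holds untreated replicates 7 to 10 of each label and the 3 arrays per label at 2 nM. All values are deposited intensities on a linear scale, with 3 arrays in each group except the untreated groups of series 2, which have 4. In series 2, WT-labelled and KO-labelled arrays lie on separate slides, so label and slide cannot be told apart there, and dose and slide series cannot be told apart anywhere. In series 1, no slide holds both untreated and 20 nM arrays, so 20 nM treatment and slide cannot be told apart. Each label is 1 cell line, and nothing in the labels says that replicates are separate cultures, so the p-values cover only how far these samples spread, and that spread may be technical.

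CDK inhibitors hold back the cell cycle by binding cyclin-dependent kinases. The CIP/KIP proteins p21 (CDKN1A), p27 (CDKN1B) and p57 (CDKN1C) bind complexes of CDKs with their cyclins, whereas the INK4 proteins p16 (CDKN2A), p15 (CDKN2B) and p19 (CDKN2D) bind CDK4 and CDK6 and keep cyclin D off them. CDKN1A is a classic transcriptional target of p53, and CDKN2A also encodes ARF from another first exon, a protein that restrains MDM2 and so stabilises p53.

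CDKN2A and CDKN2B are neighbours on chromosome 9 (GRCh38.p14, chr9:21967752-21995324 and chr9:22002903-22009313), and CDKN2B probe 8769 and 2 of 3 CDKN2A probes rose in each of the 4 responses below. The promoter windows of these genes are shown with that of CDKN1A (chr6:36676463-36687332), whose levels separate the labels. Each window is from RefSeq, build GRCh38.p14, written 5′ to 3′ on the gene's strand, and runs from 250 bases before a transcript start to 50 after it. Capitals mark GGGCGG on either strand (CCGCCC on the strand shown), the core of a GC box, where overlapping matches were counted separately. The windows are CDKN1A at chr6:36678464-36678763 (plus strand), CDKN2B at chr9:22009256-22009555, the p16 start of CDKN2A at chr9:21974808-21975107 and its ARF start at chr9:21995275-21995574 (all minus strand).
CDKN1A: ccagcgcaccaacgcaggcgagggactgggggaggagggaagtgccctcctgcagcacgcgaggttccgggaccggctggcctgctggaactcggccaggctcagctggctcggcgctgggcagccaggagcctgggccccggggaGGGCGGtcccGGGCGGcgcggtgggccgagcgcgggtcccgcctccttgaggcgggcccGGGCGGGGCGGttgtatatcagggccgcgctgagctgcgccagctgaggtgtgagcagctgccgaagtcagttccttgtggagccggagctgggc
CDKN2B: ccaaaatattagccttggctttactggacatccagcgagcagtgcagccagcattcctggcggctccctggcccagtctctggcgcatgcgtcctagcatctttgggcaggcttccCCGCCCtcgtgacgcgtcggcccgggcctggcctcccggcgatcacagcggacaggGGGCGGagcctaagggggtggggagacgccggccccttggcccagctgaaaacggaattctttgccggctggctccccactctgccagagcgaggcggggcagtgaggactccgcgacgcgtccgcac
CDKN2A, p16 start: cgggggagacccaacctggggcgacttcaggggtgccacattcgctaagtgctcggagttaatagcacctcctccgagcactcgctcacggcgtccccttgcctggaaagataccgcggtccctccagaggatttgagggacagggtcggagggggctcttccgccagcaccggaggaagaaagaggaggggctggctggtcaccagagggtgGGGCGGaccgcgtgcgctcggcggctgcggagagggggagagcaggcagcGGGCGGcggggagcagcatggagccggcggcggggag
CDKN2A, ARF start: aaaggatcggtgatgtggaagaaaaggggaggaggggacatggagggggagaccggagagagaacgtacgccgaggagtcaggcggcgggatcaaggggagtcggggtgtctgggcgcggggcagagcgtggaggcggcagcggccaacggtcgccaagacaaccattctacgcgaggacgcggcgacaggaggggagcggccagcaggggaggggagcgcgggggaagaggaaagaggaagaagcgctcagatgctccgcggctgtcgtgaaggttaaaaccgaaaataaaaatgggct

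GGGCGG occurred 4 times in the CDKN1A window, 2 times each in the CDKN2B window and the p16 window, and 0 times in the ARF window. It occurred 3 times in the CDKN2D window and 1 time in the CDKN1B window, against 45.0% of all 35116 RefSeq promoter windows of this length that hold it at least once. CCAAT, searched on both strands, occurred 3 times in the CDKN1B window and 1 time in the CDKN2D window, and 34.6% of all windows hold it. None of these 6 windows held TATAAA (11.5% of all windows) or the decamer of the p53 response element (6.63%), both searched on both strands. The windows reach 250 bases before a start, so p53 sites further upstream were not searched for. CDKN1C was not searched.

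The labels and some arrays need a caution that applies to all results. CDKN1A was higher on the WT-labelled than on the KO-labelled arrays of series 1 and lower on the WT-labelled arrays of series 2, so genotypes are called by their labels throughout. No check of them from the deleted gene's own transcript was made here. Untreated arrays 4 of both labels lay 0.561 to 0.667 (root mean square log2 difference over the probes tested) from arrays 5 and 6 of their label, which lay 0.13 to 0.145 from each other. Untreated arrays 10 of both labels lay 0.423 to 0.519 from arrays 7 to 9, which lay 0.167 to 0.206 apart, and treated replicates lay 0.155 to 0.251 apart. Many, but not all, results that rest on these arrays are given with and without them. The epithelial markers EPCAM (2246 to 5457), KRT8, KRT18 and KRT19 were bright on all 26 arrays, whereas the probe of the epithelial cadherin CDH1 read 4.33 to 18.0. Of 6 fibroblast markers, COL1A1 reached 14.2 and the other 5 were never above 10. Of 9 blood and endothelial markers with a probe, the 5 that were never above 10 were CD3E, PECAM1, VWF, CDH5 and HBB. The summed intensity of these 9 was 88.4 to 150.3 on the untreated arrays, 158 to 164 and 268 to 277 on the WT-labelled and KO-labelled 20 nM arrays, and 276 to 303 and 110 to 132 on those at 2 nM. HBA1 alone spanned 23.9 to 209.8, and its part in any result was not tested. In these bulk samples, fewer cells with a transcript and less of it per cell cannot be told apart, and the number of arrays limits the precision.

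CDKN2B and 2 of 3 CDKN2A probes were higher after leptomycin B with both labels and at both doses. CDKN1B rose with 1 label at each dose, and CDKN1A rose most in the KO-labelled cells at 2 nM. CDKN1C rose in the WT-labelled cells at 2 nM and fell in them at 20 nM. The call of that fall was lost under some alternatives, such as without WT-labelled untreated array 5 or 6. Each treated group was compared with the untreated group of its own label and series. The WT-labelled cells at 20 nM had 6 of 9 member probes called (adjusted p under 0.05), 4 higher and 2 lower, where 51.8% of all 12159 probes were called, 26.1% higher and 25.7% lower. The KO-labelled cells at 20 nM had 4 of 9 called, all higher (background 44.7%, 22.8% higher). At 2 nM, 5 of 9 were called in the WT-labelled cells, all higher (background 44.7%, 21.4% higher), and 6 of 9 in the KO-labelled cells, all higher (background 52.8%, 26.3% higher). Among these 6, CDKN2A probe 16613 passed the filter only through KO-labelled arrays of series 2 and had to differ there. Both directions together, the members' shares called lie near the background of all probes. The shares called higher lie above it, but they take in more than 1 probe of CDKN2A, and this difference was not tested. Arrays of the groups compared did not overlap for 59.6% and 52.6% of all probes in the 20 nM responses (WT and KO label) and for 56.6% and 57.5% in the 2 nM responses. The median of all probes was 0 in each response. In what follows, ± gives the standard error (SE) of a log2 difference, over 18 residual degrees of freedom, and adjusted p-values are from limma with Benjamini-Hochberg adjustment over all 12159 probes.

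**Figure D1:**
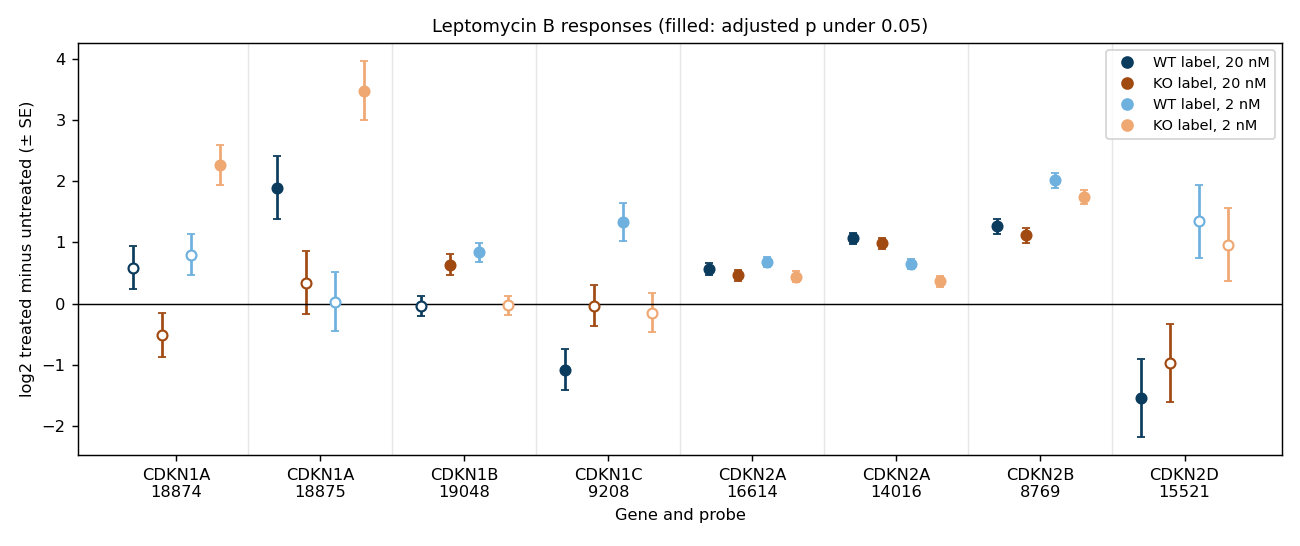
Each point is 1 probe's log2 difference between a treated group and its untreated group, with its standard error, filled where the adjusted p is under 0.05. CDKN2B and both bright CDKN2A probes lie above 0 in all 4 responses, from 0.36 to 2.02, whereas CDKN1A probe 18874 is called in the KO-labelled cells at 2 nM and in no other response.

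CDKN1A encodes p21, the inhibitor that p53 induces. Its brighter probe, 18874, separated the labels untreated and treated, in opposite directions in the 2 slide series. In series 1, the untreated arrays read 5212, 17672 and 17963 with the WT label (arrays 4, 5 and 6) and 1291, 3463 and 3330.4 with the KO label. The 20 nM arrays read 16769.6, 17617 and 18949 with the WT label and 1659, 1751 and 1764 with the KO label. All WT-labelled arrays of series 1 were above all KO-labelled ones, and array 4 was the lowest untreated array of both labels. In series 2, the untreated arrays read 615, 636, 665 and 1016 with the WT label (arrays 7, 8, 9 and 10) and 4031, 4542, 4276 and 4672 with the KO label. The 2 nM arrays read 1311, 1246 and 1198 with the WT label and 21889.7, 19727 and 21449 with the KO label. Here all KO-labelled arrays were above all WT-labelled ones, and the 2 nM KO-labelled arrays were the brightest of the series.

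**Figure D2:**
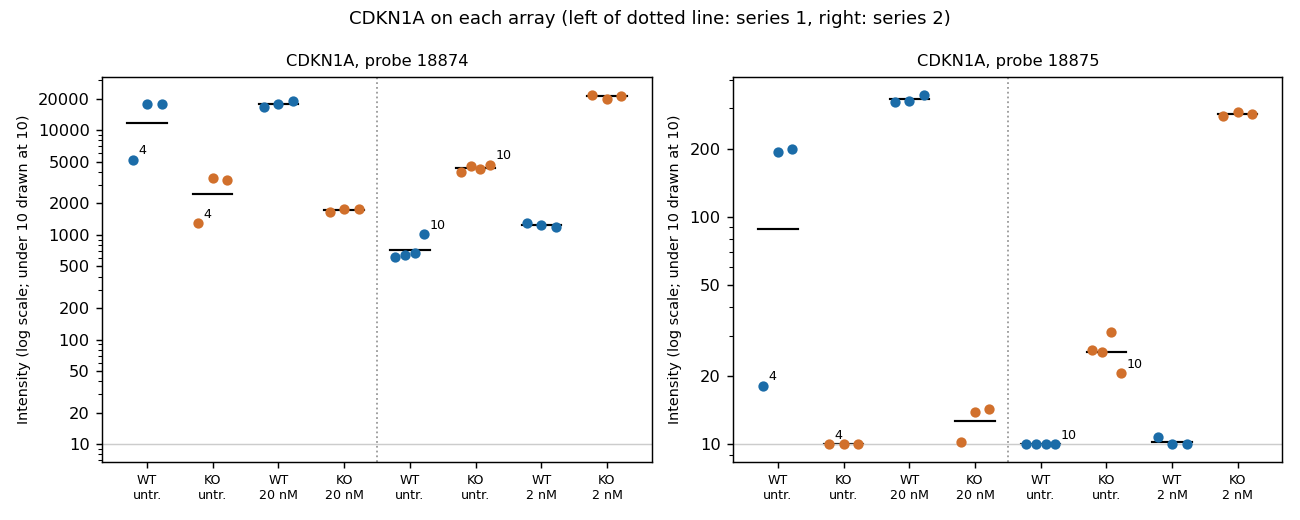
Intensity of the CDKN1A probes on each of 26 arrays on a log axis, grouped by label and treatment (bars are geometric means, intensities under 10 are drawn at 10, and untreated arrays 4 and 10 are numbered). WT-labelled arrays are the higher ones left of the dotted line and KO-labelled arrays the higher ones right of it.

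Ordered by mean intensity, CDKN1A probe 18874 was highest in the KO-labelled 2 nM arrays (21022 ± 1143, SD, n = 3), followed by WT-labelled 20 nM (17779 ± 1099), WT-labelled untreated of series 1 (13616 ± 7279) and KO-labelled untreated of series 2 (4379.9 ± 285, n = 4). Below them lay KO-labelled untreated of series 1 (2695 ± 1218), KO-labelled 20 nM (1724 ± 57.5), WT-labelled 2 nM (1251 ± 56.7) and WT-labelled untreated of series 2 (733 ± 189.9). The WT-labelled untreated arrays of series 1 overlapped the WT-labelled 20 nM arrays, and the KO-labelled untreated arrays of series 1 overlapped the KO-labelled 20 nM arrays. The other neighbours in this order did not overlap.

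CDKN1A probe 18874 was 4.81-fold lower on the KO-labelled untreated arrays of series 1, a log2 difference of -2.27 ± 0.35 (SE), adjusted p = 0.000122. It was 1 of 3 member probes called there, all lower (background 18.0%, 8.87% higher and 9.17% lower, with no overlap of the labels for 23.3%). On slide 4, which holds arrays of both labels, the 1 KO-labelled array, array 4, lay below the 3 WT-labelled ones by a log2 difference of -3.20. Set against the WT-labelled array 4 alone, the difference was -2.01, which is 1 array against 1 with no spread of either group. On series 2 slides the KO-labelled untreated arrays were higher by 2.61 ± 0.31 (SE), adjusted p = 4.03e-06, 6.10-fold, the 1 member probe called of 9 (background 11.6%, 5.60% higher and 6.01% lower, with no overlap for 17.1%), with 4 at an unadjusted p under 0.05. The direction of the untreated label difference changed between the series by 4.87 ± 0.47 (SE), adjusted p = 9.90e-08, 1 of 3 member probes whose difference between series was called, 2 higher and 1 lower (background 12.3% higher and 13.3% lower). With array 4 of both labels left out, the series 1 difference was -2.39 (adjusted p = 8.44e-10), and with array 10 of both labels left out the series 2 difference was 2.74 (adjusted p = 1.89e-05).

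The same split held on the treated arrays. At 20 nM the KO-labelled arrays had less CDKN1A, with a log2 difference of -3.36 ± 0.35 (SE), adjusted p = 2.07e-07, 10.3-fold, and on slide 2, the 1 slide that holds 20 nM arrays of both labels, with a log2 difference of -3.42. At 2 nM they had more, by 4.07 ± 0.35 (SE), adjusted p = 9.11e-09, 16.8-fold. In these comparisons 5 of 9 member probes were called at 20 nM (background 29.3%, with no overlap of the labels for 56.2%) and 7 of 9 at 2 nM (background 33.0%, with no overlap for 61.5%), of which CDKN2A probe 16613 had to differ through the filter.

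**Figure D3:**
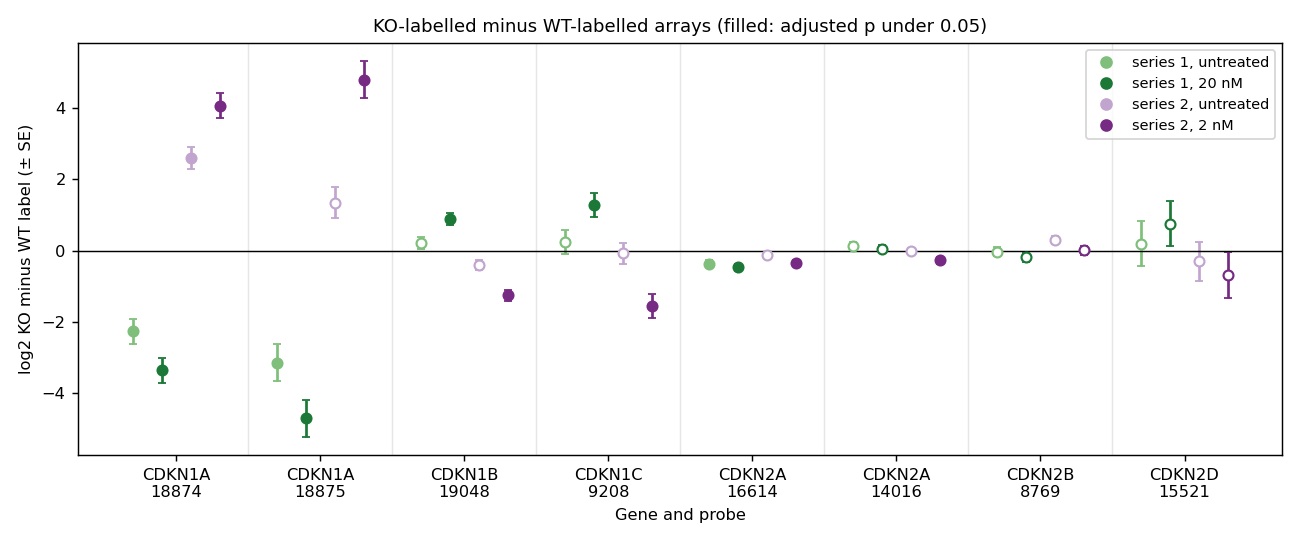
Each point is the log2 difference of KO-labelled minus WT-labelled arrays for 1 probe within 1 slide series and treatment, with its standard error, filled where the adjusted p is under 0.05. Both CDKN1A probes lie below 0 in series 1 and above 0 in series 2, and CDKN1B and CDKN1C on the treated arrays lie the other way, at 0.89 and 1.29 for 20 nM and -1.26 and -1.55 for 2 nM.

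The CDKN1A response to leptomycin B was clear in the KO-labelled cells at 2 nM, where probe 18874 rose by 2.26 ± 0.33 (SE), adjusted p = 6.27e-06, 4.80-fold, with all 3 treated arrays above all 4 untreated ones. In the WT-labelled cells at 2 nM all treated arrays were also above all untreated ones, but the difference of 0.80 ± 0.33 (SE), adjusted p = 0.0535, missed the threshold. It was called without array 10 of both labels, at 0.97 (adjusted p = 0.0296), or without the WT-labelled array 10 alone, at 0.97 (adjusted p = 0.0277). The standard error comes from all 8 groups. Log2 values had an SD of 1.02 (WT label) and 0.81 (KO label) in the untreated groups of series 1. In series 2 the SD was 0.34 and 0.095 untreated and 0.065 and 0.080 at 2 nM (WT and KO label). At 20 nM the WT-labelled difference was 0.59 ± 0.35 (SE), adjusted p = 0.177, and the KO-labelled one -0.51 ± 0.35 (SE), adjusted p = 0.256. Both depend on array 4. Without array 4 of both labels the WT-labelled difference was close to 0 (adjusted p = 1) and the KO-labelled one -0.98 (adjusted p = 8.16e-06), the latter also called without the KO-labelled array 4 alone at -0.98 (adjusted p = 0.0169). With array 4 as the only untreated array, they were 1.77 (adjusted p = 1.05e-06) and 0.42 (adjusted p = 0.0943). A group left with 1 array is assumed in such a fit to vary like the other groups.

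The 2 nM response of CDKN1A probe 18874 was larger with the KO label than with the WT label by 1.46 ± 0.47 (SE), adjusted p = 0.0382, 1 of 4 member probes called, 2 higher and 2 lower (background 7.25% higher and 7.41% lower). This call was lost when any of 11 single arrays was left out (WT-labelled untreated 9 and 10, KO-labelled untreated 7, 8 and 9, and each 2 nM array of both labels), with values of 1.29 to 1.51 and adjusted p of 0.0506 to 0.0792, and without array 10 of both labels it was 1.33 (adjusted p = 0.0744). It was also lost with no filter on dim probes (adjusted p = 0.0935) and with the percentile filter (adjusted p = 0.0643). The standard error here, too, comes from all groups and takes in the wider spread of the untreated arrays of series 1. At 20 nM no member probe was called for a label difference of its response by limma without a block, 0 of 9 (background 5.91% higher and 4.98% lower), with 4 at an unadjusted p under 0.05. With a replicate block 4 of 9 were called, where same-numbered untreated arrays deviated together and same-numbered 20 nM arrays did not. For probe 18874 that difference was -1.10 ± 0.50 (SE), adjusted p = 0.181. It was called with the block at -1.10 (adjusted p = 0.000229), without array 4 of both labels at -0.97 (adjusted p = 0.00133), without the KO-labelled array 4 at -1.56 (adjusted p = 0.0129), and with array 4 as the only untreated array at -1.35 (adjusted p = 0.00391). Between doses, the KO-labelled response was lower at 20 than at 2 nM with a log2 difference of -2.78 ± 0.48 (SE), adjusted p = 0.000225, and with a log2 difference of -1.85 (adjusted p = 2.05e-05) without arrays 5 and 6. It was 1 of 5 member probes called, 2 higher and 3 lower (background 13.8% higher and 13.2% lower). The WT-labelled difference between doses, -0.22 ± 0.48 (SE), adjusted p = 0.798, took opposite signs with the controls used, at -0.81 (adjusted p = 0.00164) without array 4 and 0.97 (adjusted p = 0.00625) without arrays 5 and 6.

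The dimmer CDKN1A probe, 18875, split the labels in the same directions as probe 18874, but the probes parted in the 20 nM responses. In series 1 it read 18.1, 193 and 199 on the WT-labelled untreated arrays and 321, 323 and 345 at 20 nM. The KO-labelled arrays of series 1 read 0.668, 7.24 and 7.99 untreated, all at or below 10, and 10.2, 13.9 and 14.3 at 20 nM. In series 2 the KO-labelled arrays read 26.1, 25.4, 31.1 and 20.5 untreated and 279, 289.6 and 283 at 2 nM. The 2 nM arrays with the KO label were the high ones there, since the WT-labelled arrays of series 2 read 1.11 to 3.67 untreated and 7.36 to 10.7 at 2 nM.

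On untreated arrays, CDKN1A probe 18875 was at least 8.86-fold lower with the KO label in series 1 (adjusted p = 0.000198). In series 2 it was at least 2.55-fold higher, which missed the threshold (adjusted p = 0.0547) and passed it with a replicate block (adjusted p = 0.0234). A bound is given where every array of the dimmer group was at or below 10. Its difference between labels was -4.70 ± 0.52 (SE), adjusted p = 3.89e-07, at 20 nM and 4.79 ± 0.52 (SE), adjusted p = 2.46e-07, at 2 nM. It rose in the KO-labelled cells at 2 nM by 3.48 ± 0.48 (SE), adjusted p = 3.27e-06. In the WT-labelled cells at 20 nM it rose by 1.90 ± 0.52 (SE), adjusted p = 0.00393. This response was 0.75 (adjusted p = 6.30e-05) without the WT-labelled array 4 and 4.18 (adjusted p = 1.80e-11) with array 4 as the only untreated array, and it missed the threshold in a fit of series 1 alone (adjusted p = 0.0699). In the KO-labelled cells at 20 nM it was at least 1.26-fold higher, which missed the threshold (adjusted p = 0.649) and passed it without array 4 of both labels (adjusted p = 0.0338). Without array 4 of both labels, the CDKN1A probes thus differed in the KO-labelled cells at 20 nM, with probe 18874 called lower (-0.98) and probe 18875 called higher. For probe 18875 this sets untreated readings of 7.24 and 7.99, taken as 10, against 10.2, 13.9 and 14.3, all near the floor. In the WT-labelled cells without array 4 of both labels, probe 18874 was close to 0 and probe 18875 was called higher (0.75 (adjusted p = 5.63e-05)). Probe 18874 read 16769.6 to 18949 on the WT-labelled 20 nM arrays, and the highest value of the data was 27669. Whether probe 18874 reads rises less fully at such levels was not tested. Differences of responses and between series for probe 18875 each take in a group whose arrays were all at or below 10, so their sizes depend on the floor and are not exact. With the floor of 10, the label difference of the 2 nM response was 3.44 ± 0.68 (SE), adjusted p = 0.00113. A floor of 5 gave 2.61 (adjusted p = 0.0152) and a floor of 20 3.48 (adjusted p = 0.000508). The change of the untreated label difference between series was 4.50 ± 0.68 (SE), adjusted p = 4.32e-05, with 6.09 (adjusted p = 1.06e-06) at a floor of 5, 2.54 (adjusted p = 0.00552) at a floor of 20 and 2.21 (adjusted p = 6.89e-06) without arrays 5 and 6. Between doses, the response with the KO label differed with a log2 difference of -3.14 ± 0.71 (SE), adjusted p = 0.00242, and with the WT label by 1.86 ± 0.71 (SE), adjusted p = 0.0592. The latter was called without WT-labelled array 4 (adjusted p = 0.00314), array 5 (adjusted p = 0.0166) or array 6 (adjusted p = 0.0148). The label difference of the 20 nM response was -1.56 ± 0.73 (SE), adjusted p = 0.198, and was called with array 4 as the only untreated array (adjusted p = 8.01e-08). With that array alone, the series 1 label difference rests on 1 array against 1, where the KO-labelled one was below 10.

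Over the 26 arrays, the genes whose centred log2 levels lay nearest those of CDKN1A were RINL (root mean square log2 difference 0.609), GDF15 (0.655), PHLDA3 (0.664), CYFIP2 (0.727) and CYSRT1 (0.738). GDF15, a secreted stress cytokine of the TGF-beta superfamily, and PHLDA3, an inhibitor of AKT, are both known targets of p53.

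CDKN1B encodes p27, whose level is known to be set largely by protein turnover. Its transcript rose in the cells that had the lower CDKN1A of each series, the KO-labelled cells at 20 nM and the WT-labelled cells at 2 nM. In series 1 the WT-labelled arrays of probe 19048 read 212, 131 and 138 untreated and 141, 158 and 159.7 at 20 nM. The KO-labelled arrays read 189, 187 and 169 untreated and 299, 271 and 279 at 20 nM. All 3 KO-labelled 20 nM arrays were above every other array of series 1. In series 2 the WT-labelled arrays read 164, 159.6, 163 and 214 untreated and 302, 295 and 336 at 2 nM. The KO-labelled arrays of series 2 read 125, 115, 117 and 179.6 untreated and 140.5, 115 and 135 at 2 nM. All 3 WT-labelled 2 nM arrays were above every other array of series 2, and array 10 was the highest untreated array of each label. The summed intensity of the 9 blood and endothelial markers was also highest in these groups (268 to 277 and 276 to 303, against 88.4 to 164 in the others), where HBA1 was higher than untreated by 2.04 ± 0.23 (adjusted p = 3.29e-07) and 2.03 ± 0.21 (adjusted p = 1.21e-07); its part in the result was not tested.

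The rise was 0.64 ± 0.17 (SE), adjusted p = 0.00350, in the KO-labelled cells at 20 nM (1.56-fold) and 0.84 ± 0.16 (SE), adjusted p = 0.000158, in the WT-labelled cells at 2 nM (1.79-fold). The other responses were -0.03 ± 0.17 (adjusted p = 0.914) in the WT-labelled cells at 20 nM and -0.02 ± 0.16 (adjusted p = 0.943) in the KO-labelled cells at 2 nM. At 2 nM the response was smaller with the KO label than with the WT label with a log2 difference of -0.86 ± 0.22 (SE), adjusted p = 0.00941. At 20 nM the label difference in the response, 0.67 ± 0.24 (SE), adjusted p = 0.0724, missed the threshold. It was called with a replicate block at 0.67 (adjusted p = 0.00625), without WT-labelled array 5 at 0.80 (adjusted p = 0.0413), without KO-labelled array 4 at 0.70 (adjusted p = 0.0478), and with array 4 as the only untreated array at 1.05 (adjusted p = 0.0321). On the treated arrays, CDKN1B was higher with the KO label at 20 nM by 0.89 ± 0.17 (SE), adjusted p = 0.000305, and by 0.81 on slide 2. It was lower with the KO label at 2 nM with a log2 difference of -1.26 ± 0.17 (SE), adjusted p = 4.00e-06.

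The untreated label differences of CDKN1B were smaller, 0.21 ± 0.17 (adjusted p = 0.419) in series 1 and -0.40 ± 0.14 (adjusted p = 0.0819) in series 2. The series 2 difference was called with a replicate block at -0.40 (adjusted p = 0.00760), without array 10 of both labels at -0.45 (adjusted p = 0.0228) and without the KO-labelled array 10 alone at -0.55 (adjusted p = 0.00707). The series 1 difference was 0.40 (adjusted p = 0.00149) without arrays 4 and 10 of both labels. The change of the untreated difference between series, -0.61 ± 0.22 (SE), adjusted p = 0.0456, was lost when any of 11 single arrays was left out (WT-labelled 5, 6, 7, 9 and 10 and KO-labelled 4 to 9), with values of -0.66 to -0.49 and adjusted p of 0.0508 to 0.131. It was -0.23 (adjusted p = 0.695) without arrays 5 and 6 and -0.63 (adjusted p = 0.226) with slide as a random block, and it was lost with a floor of 5, no filter and the percentile filter (adjusted p = 0.0592, 0.0921 and 0.0637). Between doses, the response was lower at 20 than at 2 nM in the WT-labelled cells with a log2 difference of -0.87 ± 0.23 (SE), adjusted p = 0.00837, 1 of 5 member probes called, 1 higher and 4 lower (background 12.6% higher and 11.9% lower). It was higher in the KO-labelled cells by 0.66 ± 0.23 (SE), adjusted p = 0.0357. The KO-labelled difference was lost without any of 8 single arrays (untreated 5, 6 and 10, all 3 at 20 nM, and 2 nM arrays 2 and 3), with values of 0.51 to 0.69 and adjusted p of 0.0501 to 0.0928, and was 0.65 (adjusted p = 0.0908) with slide as a random block and 0.60 (adjusted p = 0.100) without arrays 5 and 6. No filter and the percentile filter gave adjusted p = 0.0735 and 0.0506. The WT-labelled difference was -1.31 (adjusted p = 0.00123) without arrays 5 and 6.

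**Figure D4:**
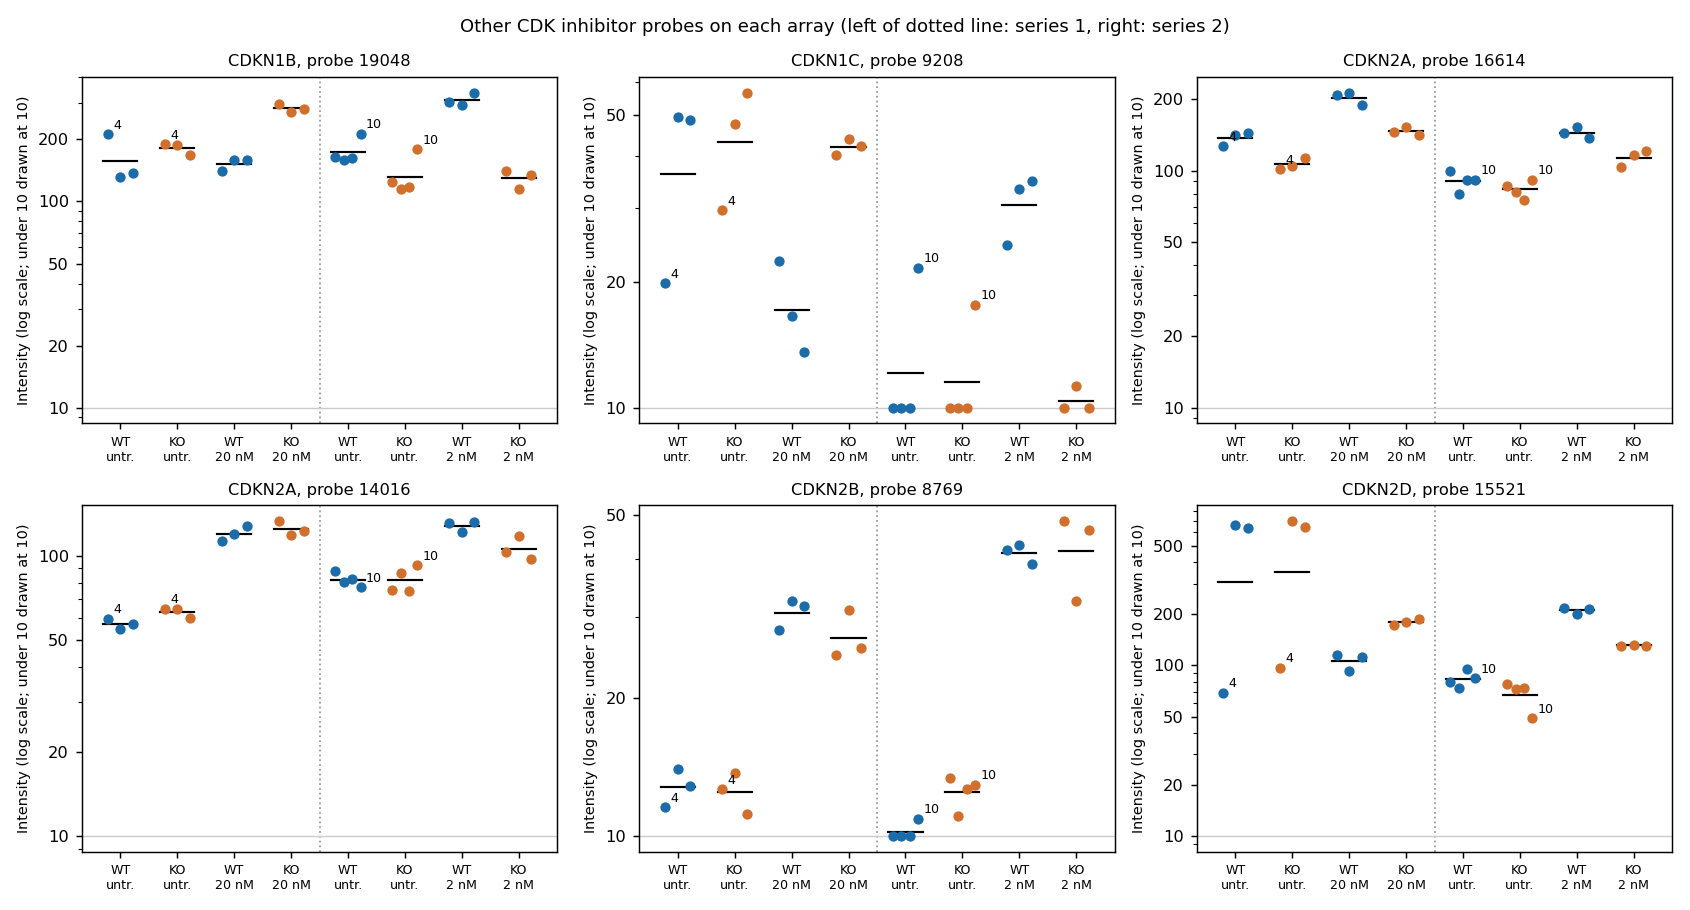
Intensity of 6 further member probes on each of 26 arrays on log axes, grouped by label and treatment as named under each axis (bars are geometric means, intensities under 10 are drawn at 10, and untreated arrays 4 and 10 are numbered). CDKN2B and CDKN2A lie higher in all treated groups than in the untreated groups of their label and series, and CDKN2D reads 631 to 696 on untreated arrays 5 and 6 and lower on all others.

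CDKN1C encodes p57, the imprinted member of the CIP/KIP family. It was dim, at or below 56.5 on every array. In series 1, probe 9208 read 19.8, 49.4 and 48.6 on the WT-labelled untreated arrays and 22.4, 16.5 and 13.6 at 20 nM. The KO-labelled arrays read 29.6, 47.7 and 56.5 untreated and 40.04, 43.7 and 42.2 at 20 nM. Array 4 was the lowest untreated array of both labels, and the WT-labelled array 4 overlapped the treated arrays. The WT-labelled arrays of series 2 read 8.81, 9.95, 9.73 and 21.6 untreated and 24.5, 33.3 and 34.7 at 2 nM. The KO-labelled arrays of series 2 read 1.69, 8.82, 9.23 and 17.6 untreated and 8.86, 11.2 and 8.71 at 2 nM. Array 10 was the only untreated array of series 2 above 10 for either label, and only 1 of the 3 KO-labelled 2 nM arrays was above 10.

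CDKN1C rose in the WT-labelled cells at 2 nM by 1.33 ± 0.32 (SE), adjusted p = 0.00162, 2.52-fold, with all 3 treated arrays above all 4 untreated ones. In the KO-labelled cells at 2 nM the difference was -0.15 ± 0.32 (adjusted p = 0.742). In the WT-labelled cells at 20 nM it fell by 1.08 on the log2 scale (SE 0.34, adjusted p = 0.0103). That call was lost without WT-labelled untreated array 5, at -0.86 (adjusted p = 0.0631), array 6, at -0.87 (adjusted p = 0.0614), or 20 nM array 3, at -0.91 (adjusted p = 0.0529). It was -1.52 (adjusted p = 0.000166) without array 4 of both labels and -0.21 (adjusted p = 0.722) with array 4 as the only untreated array. The KO-labelled difference at 20 nM was -0.04 ± 0.34 (adjusted p = 0.985). In the WT-labelled cells the response was lower at 20 than at 2 nM with a log2 difference of -2.41 ± 0.46 (SE), adjusted p = 0.000724, and with a log2 difference of -1.54 (adjusted p = 0.0267) without arrays 5 and 6. With a floor of 20 the 2 nM rise was 0.58 (adjusted p = 0.0395), and the difference between doses -1.39 (adjusted p = 0.00374).

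On the treated arrays, CDKN1C was higher with the KO label at 20 nM by 1.29 ± 0.34 (SE), adjusted p = 0.00574, and by 1.63 on slide 2. It was lower with the KO label at 2 nM with a log2 difference of -1.55 ± 0.34 (SE), adjusted p = 0.00108, where a floor of 20 in place of 10 gave -0.61 (adjusted p = 0.0547). The 2 nM response was smaller with the KO label with a log2 difference of -1.48 ± 0.45 (SE), adjusted p = 0.0276. This call was lost without any of 7 single arrays (WT-labelled untreated 7, 8 and 9, WT-labelled 2 nM 2 and 3, KO-labelled 2 nM 1 and 3), with values of -1.45 to -1.39 and adjusted p of 0.0554 to 0.0712, and with a floor of 5 (-1.34 (adjusted p = 0.119)), a floor of 20 (-0.58 (adjusted p = 0.253)) or no filter (-1.48 (adjusted p = 0.0703)). The label difference in the 20 nM response, 1.04 ± 0.48 (SE), adjusted p = 0.184, was called with a replicate block at 1.04 (adjusted p = 0.00240), without array 4 of both labels at 1.21 (adjusted p = 0.0376), and without the WT-labelled array 4 alone at 1.48 (adjusted p = 0.0252). The nearest genes over the 26 arrays were KDM3A, a histone H3 lysine demethylase (root mean square log2 difference 0.386), HES1, a Notch target and transcriptional repressor (0.421), and ANGPTL4, a secreted inhibitor of lipoprotein lipase (0.426). HES1 is also in the list of regulators of these genes below.

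CDKN2A encodes p16 and ARF, and which of these transcripts each of its 3 probes reads was not determined here. Both bright probes rose in all 4 responses. Probe 14016 read 59.6, 54.7 and 57.1 on the WT-labelled untreated arrays of series 1 and 113, 119 and 128 at 20 nM. With the KO label it read 64.7, 64.4 and 59.7 untreated and 133, 119 and 123 at 20 nM. Every 20 nM array was above every untreated array of series 1, and array 4 did not stand apart from 5 and 6 for this probe. The WT-labelled arrays of series 2 read 87.8, 80.5, 82.6 and 77.3 untreated and 131, 121 and 132 at 2 nM. The KO-labelled arrays of series 2 read 75.6, 86.7, 74.7 and 92.4 untreated and 103, 117 and 97.2 at 2 nM. Every 2 nM array was above every untreated array of series 2.

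Probe 14016 of CDKN2A rose at 20 nM by 1.07 ± 0.09 (SE), adjusted p = 2.87e-09, in the WT-labelled cells and by 0.99 ± 0.09 (SE), adjusted p = 1.89e-08, in the KO-labelled cells, 2.10-fold and 1.98-fold. At 2 nM it rose by 0.64 ± 0.08 (SE), adjusted p = 2.22e-06, in the WT-labelled cells and by 0.36 ± 0.08 (SE), adjusted p = 0.000909, in the KO-labelled cells, 1.56-fold and 1.29-fold. The response of this probe was larger at 20 than at 2 nM by 0.43 ± 0.12 (SE), adjusted p = 0.0143, with the WT label and by 0.62 ± 0.12 (SE), adjusted p = 0.000732, with the KO label. Its untreated means (WT and KO label) were 57.2 and 62.9 in series 1 and 82.0 and 82.3 in series 2. The treated means were 120 and 125 at 20 nM and 128 and 106 at 2 nM. The WT-labelled difference between doses was 0.36 (adjusted p = 0.0961) with array 4 as the only untreated array. The label differences of the response were -0.08 ± 0.13 (adjusted p = 0.768) at 20 nM and -0.28 ± 0.12 (adjusted p = 0.129) at 2 nM.

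Probe 16614 of CDKN2A read 126, 141 and 145 on the WT-labelled untreated arrays of series 1 and 207, 213 and 189 at 20 nM. With the KO label it read 101, 104 and 113 untreated and 146, 153 and 141 at 20 nM. In series 1 the WT-labelled arrays were above the KO-labelled ones of the same treatment without overlap. In series 2 it read 99.3, 79.4, 91.3 and 91.4 (WT label) and 86.3, 81.3, 75.3 and 91.5 (KO label) untreated, which overlap, and 144, 152 and 137 (WT label) and 104, 116 and 121 (KO label) at 2 nM, which do not. It rose by 0.57 ± 0.09 (SE), adjusted p = 2.41e-05, with the WT label and 0.47 ± 0.09 (SE), adjusted p = 0.000290, with the KO label at 20 nM. At 2 nM it rose by 0.68 ± 0.09 (SE), adjusted p = 1.55e-06, with the WT label and 0.44 ± 0.09 (SE), adjusted p = 0.000170, with the KO label. These 4 responses of probe 16614, like those of probe 14016, were called under every alternative run, leaving out each array in turn included. No alternative parts 20 nM treatment from slide. The label differences of the response of probe 16614 were -0.10 ± 0.13 (adjusted p = 0.718) at 20 nM and -0.24 ± 0.12 (adjusted p = 0.231) at 2 nM. Unlike that of probe 14016, its response was not called different between doses. The 20 nM minus 2 nM difference was -0.11 ± 0.13 (adjusted p = 0.567) with the WT label and 0.02 ± 0.13 (adjusted p = 0.914) with the KO label.

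Between labels, CDKN2A probe 16614 was lower with the KO label on untreated arrays of series 1 with a log2 difference of -0.37 ± 0.09 (SE), adjusted p = 0.00712, a call that was lost with array 4 as the only untreated array, at -0.32 (adjusted p = 0.342). On slide 4 the difference was -0.43. It was lower with the KO label at 20 nM with a log2 difference of -0.47 ± 0.09 (SE), adjusted p = 0.000460, and at 2 nM with a log2 difference of -0.35 ± 0.09 (SE), adjusted p = 0.00537. Probe 14016 was lower with the KO label at 2 nM with a log2 difference of -0.28 ± 0.09 (SE), adjusted p = 0.0199. The 2 nM label differences were not called with slide as a random block, at -0.35 (adjusted p = 0.0850) for probe 16614 and -0.28 (adjusted p = 0.177) for probe 14016. The 14016 difference was also lost without WT-labelled 2 nM array 1 or 3, or KO-labelled 2 nM array 1 or 3, with values of -0.26 to -0.22 and adjusted p of 0.0626 to 0.104. At 20 nM the 14016 difference was 0.06 ± 0.09 (adjusted p = 0.730), so the probes of this gene differ in whether the 20 nM arrays of the labels part.

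The third CDKN2A probe, 16613, was above 10 on 4 of 26 arrays, with a highest value of 13.2. It passed the filter only through the KO-labelled arrays of series 2, so it had to differ there. It read 13.2, 11.0 and 10.3 on the KO-labelled 2 nM arrays and 9.71, 5.48, 10.7 and 5.74 on the untreated ones. The KO-labelled 2 nM response of 0.17 ± 0.06 (SE), adjusted p = 0.0278, was lost without untreated array 7 or 8 or 2 nM array 1, at 0.07 to 0.16 and adjusted p of 0.0545 to 0.328. The 2 nM label difference, at least 1.14-fold higher with the KO label (adjusted p = 0.0318), was lost with slide as a random block, at 0.19 (adjusted p = 0.223), with a floor of 5, at 0.44 (adjusted p = 0.202), in a fit of series 2 alone, at 0.19 (adjusted p = 0.0532), and without each WT-labelled 2 nM array or KO-labelled 2 nM array 1, at 0.09 to 0.19 and adjusted p of 0.0713 to 0.267. The difference between doses with the KO label takes in groups at or below 10 and has no exact size. It was not called (adjusted p = 0.182), but was without KO-labelled 2 nM array 3 (adjusted p = 0.0461).

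CDKN2B encodes p15, the INK4 inhibitor known to be induced by TGF-beta in epithelial cells. Its probe 8769 rose most of the INK4 probes, from levels near the floor. The WT-labelled arrays of series 1 read 11.6, 14 and 12.9 untreated and 28.1, 32.4 and 31.6 at 20 nM. The KO-labelled arrays read 12.7, 13.7 and 11.2 untreated and 24.7, 31.0 and 25.6 at 20 nM. In series 1 every treated array was above every untreated one, and array 4 lay within 3 units of 5 and 6. In series 2 the WT-labelled arrays read 6.49, 8.76, 9.29 and 10.9 untreated and 42.0, 43.1 and 39.1 at 2 nM. The KO-labelled arrays of series 2 read 13.4, 11.1, 12.7 and 12.9 untreated and 48.4, 32.5 and 46.3 at 2 nM. Again every treated array was above every untreated one. The WT-labelled untreated arrays 7, 8 and 9 were below 10, so the WT-labelled rise at 2 nM is understated.

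CDKN2B rose at 20 nM by 1.26 ± 0.13 (SE), adjusted p = 4.45e-08, in the WT-labelled cells (2.40-fold) and by 1.12 ± 0.13 (SE), adjusted p = 4.46e-07, in the KO-labelled cells (2.17-fold). At 2 nM it rose by 2.02 ± 0.12 (SE), adjusted p = 2.97e-11, in the WT-labelled cells (4.05-fold) and by 1.74 ± 0.12 (SE), adjusted p = 9.97e-11, in the KO-labelled cells (3.34-fold). All 4 responses were called under every alternative run, none of which parts 20 nM treatment from slide, with log2 values between 0.43 and 2.25. With a floor of 20 in place of 10 they were 0.61 (adjusted p = 5.33e-05) and 0.43 (adjusted p = 0.00220) at 20 nM, and 1.05 (adjusted p = 3.06e-08) and 1.06 (adjusted p = 1.30e-08) at 2 nM. The rise was smaller at 20 than at 2 nM, with a log2 difference of -0.75 ± 0.17 (SE), adjusted p = 0.00347, with the WT label and with a log2 difference of -0.63 ± 0.17 (SE), adjusted p = 0.0108, with the KO label, the reverse of CDKN2A probe 14016. With a floor of 20 the WT-labelled difference was -0.43 (adjusted p = 0.0312), and with a floor of 5 the KO-labelled one -0.63 (adjusted p = 0.0506). The label differences of the response were -0.15 ± 0.18 (adjusted p = 0.693) at 20 nM and -0.28 ± 0.17 (adjusted p = 0.335) at 2 nM. The untreated label difference in series 2, 0.29 ± 0.11 (SE), adjusted p = 0.100, was called with a replicate block at 0.29 (adjusted p = 0.0436). In series 1 it was -0.04 ± 0.13 (adjusted p = 0.946). Nearest to CDKN2B over the 26 arrays were CXCR4, a chemokine receptor (root mean square log2 difference 0.242), FAM53C (0.261) and CTSL, a lysosomal protease (0.269).

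CDKN2D encodes p19, an INK4 inhibitor whose level is known to vary over the cell cycle. Its probe 15521 was set apart by untreated arrays 5 and 6 of both labels. In series 1 the untreated arrays read 68.9, 661 and 631 with the WT label and 96.6, 696 and 642 with the KO label, so arrays 5 and 6 were the high ones and array 4 the low one of each. The 20 nM arrays read 114, 92.8 and 111 with the WT label and 172, 178 and 185 with the KO label, between array 4 and arrays 5 and 6. Untreated arrays of series 2 read 79.5, 73.3, 94.7 and 83.7 with the WT label and 77.4, 72.4, 73.1 and 49.1 with the KO label. The 2 nM arrays read 216, 200.4 and 213 with the WT label and 129, 132 and 130.3 with the KO label. All 2 nM arrays were above all untreated arrays of series 2, and no group of series 2 came near arrays 5 and 6.

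The sign of the 20 nM response of CDKN2D depended on which untreated arrays were used. With all of them it fell by 1.54 on the log2 scale in the WT-labelled cells (SE 0.64, adjusted p = 0.0490), and the KO-labelled difference was -0.97 ± 0.64 (adjusted p = 0.230). Without array 4 of both labels the differences were -2.61 (adjusted p = 9.90e-12) and -1.91 (adjusted p = 1.17e-09). With array 4 as the only untreated array they were 0.62 (adjusted p = 0.0130) and 0.89 (adjusted p = 0.00134), which turns both from lower to higher. The WT-labelled value ranged from -2.61 to -0.98 when single arrays were left out. It was called without WT-labelled untreated array 4 (-2.61, adjusted p = 0.000139) and lost without untreated array 5 at -0.98 (adjusted p = 0.251), array 6 at -1.01 (adjusted p = 0.241), or 20 nM array 1, 2 or 3 at adjusted p of 0.0818, 0.116 and 0.0846. It was also lost with a floor of 5, with no filter, with the percentile filter and in a fit of series 1 alone (adjusted p = 0.0541, 0.114, 0.0792 and 0.219). The KO-labelled difference was called without the KO-labelled array 4 alone at -1.91 (adjusted p = 0.00714).

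At 2 nM, CDKN2D differed by 1.35 ± 0.60 (SE), adjusted p = 0.0723, with the WT label and by 0.96 ± 0.60 (SE), adjusted p = 0.187, with the KO label. The standard error comes from all 8 groups and takes in the spread of arrays 4 to 6. Fitted on series 2 alone, these values were called, at 1.35 (adjusted p = 7.93e-06) and 0.96 (adjusted p = 8.40e-05), and likewise without arrays 4 and 10 of both labels, at 1.35 (adjusted p = 1.23e-10) and 0.81 (adjusted p = 8.28e-08). The label differences on the treated arrays were 0.76 ± 0.64 (adjusted p = 0.431) at 20 nM and -0.68 ± 0.64 (adjusted p = 0.474) at 2 nM, although the labels did not overlap at either dose. The difference between doses in the WT-labelled cells, -2.88 ± 0.87 (SE), adjusted p = 0.0198, was lost without WT-labelled untreated array 5 at -2.33 (adjusted p = 0.0696) or array 6 at -2.36 (adjusted p = 0.0692), and was -0.73 (adjusted p = 0.0300) without arrays 5 and 6 of both labels. With no filter it was -2.88 (adjusted p = 0.0526). The KO-labelled one, -1.94 ± 0.87 (SE), adjusted p = 0.105, was called without the KO-labelled array 4 at -2.87 (adjusted p = 0.00344). The change of the untreated label difference between series, -0.50 ± 0.84 (SE), adjusted p = 0.725, was called with a replicate block at -0.50 (adjusted p = 0.0349). The label difference of the 20 nM response, 0.56 ± 0.90 (SE), adjusted p = 0.783, was called with a replicate block at 0.56 (adjusted p = 0.0399) and without array 4 of both labels at 0.71 (adjusted p = 0.0144). Nearest over the 26 arrays were DDIT3, a transcription factor of the unfolded protein response (root mean square log2 difference 0.378), KDM3A (0.493) and TXNL4B (0.495). KDM3A was also the nearest gene to CDKN1C.

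**Figure D5:**
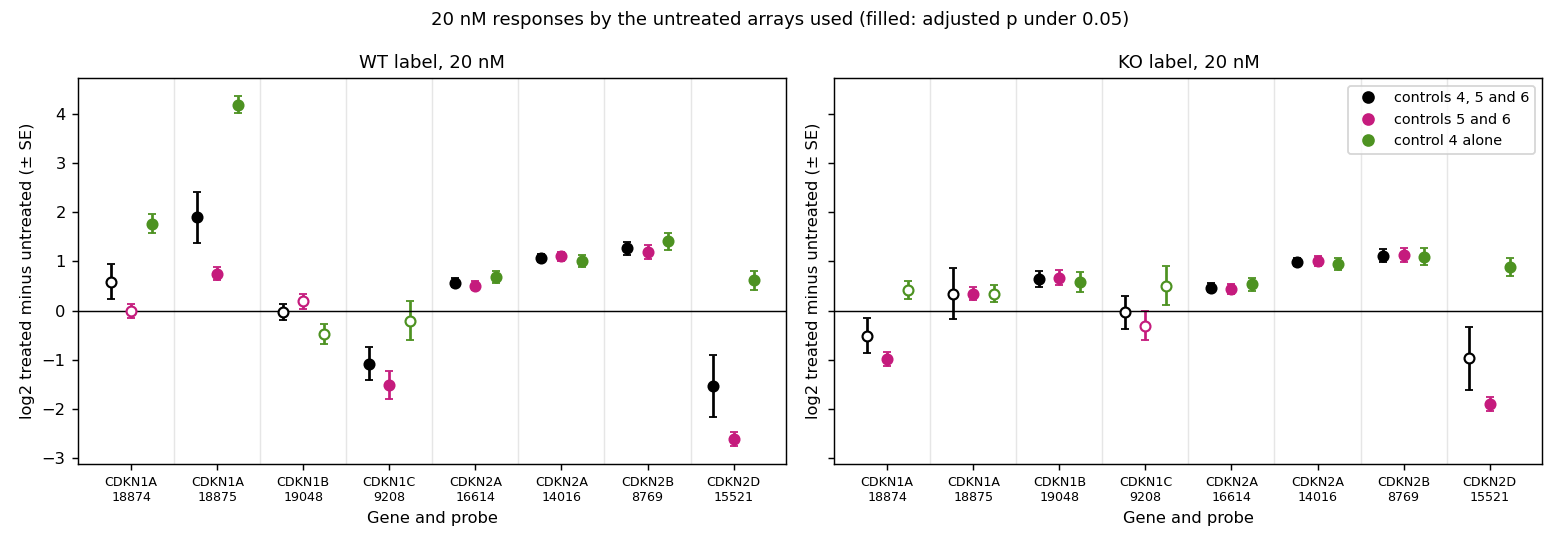
The 20 nM responses of the member probes in each label (log2 treated minus untreated, with standard error, filled where the adjusted p is under 0.05), with untreated arrays 4, 5 and 6, with 5 and 6 alone, or with 4 alone. CDKN2A and CDKN2B hardly move, whereas with the WT label CDKN2D turns from -2.61 to 0.62 and CDKN1A probe 18874 from about 0 to 1.77.

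Among the kinases and cyclins that these inhibitors bind, the label difference of the 2 nM response was called for 5 of 10, all lower with the KO label, and that of the 20 nM response for 5 of 10, all higher with the KO label (background 7.41% and 5.91% in those directions). Of 10 tested CDK and cyclin genes, the KO-labelled cells at 2 nM had 1 higher and 5 lower (median log2 difference -0.61, background 26.3% higher and 26.5% lower), and the WT-labelled cells at 20 nM 2 higher and 5 lower (median log2 difference -0.45, background 26.1% higher and 25.7% lower). The median of all probes was 0 in these comparisons. The S and G2 cyclin gene CCNA2 fell in the KO-labelled cells at 2 nM with a log2 difference of -2.70 ± 0.12 (adjusted p = 1.03e-13) and in the WT-labelled cells at 20 nM with -1.78 ± 0.13 (adjusted p = 2.69e-10). CCNE1, the cyclin that drives CDK2 into S phase, rose in all 4 responses, most in the KO-labelled cells at 20 nM, by 2.05 ± 0.26 (adjusted p = 2.34e-06), and in the WT-labelled cells at 2 nM, by 1.62 ± 0.25 (adjusted p = 1.67e-05). The KO-labelled cells at 20 nM had 1 higher and 1 lower (median log2 difference 0.12, background 22.8% higher and 21.9% lower) and the WT-labelled cells at 2 nM 2 higher and 3 lower (median log2 difference 0.08, background 21.4% higher and 23.3% lower).

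Of 10 pocket protein and E2F genes, which act downstream of the CDKs, the WT-labelled cells at 20 nM had 1 higher and 4 lower (median log2 difference -0.18, background 26.1% higher and 25.7% lower) and the KO-labelled cells at 2 nM 2 higher and 5 lower (median log2 difference -0.22, background 26.3% higher and 26.5% lower). E2F2, an activating E2F, fell with log2 differences of -2.38 ± 0.15 (adjusted p = 5.45e-11) and -1.85 ± 0.14 (adjusted p = 7.40e-10) in these, and RBL1, which encodes the pocket protein p107, fell in all 4 responses, from -0.61 ± 0.17 (adjusted p = 0.00578) in the KO-labelled cells at 20 nM to -1.85 ± 0.16 (adjusted p = 3.68e-09) in the KO-labelled cells at 2 nM. E2F3 rose in all 4 responses, most in the WT-labelled cells at 2 nM, by 0.85 ± 0.10 (adjusted p = 3.53e-07). Of 14 genes listed for the turnover of p21 and p27, the KO-labelled cells at 20 nM had 3 higher and 3 lower (median log2 difference 0.08, background 22.8% higher and 21.9% lower), the WT-labelled cells at 20 nM 2 higher and 5 lower (median log2 difference 0.00, background 26.1% higher and 25.7% lower), the WT-labelled cells at 2 nM 2 higher and 3 lower (median log2 difference -0.11, background 21.4% higher and 23.3% lower) and the KO-labelled cells at 2 nM 2 higher and 5 lower (median log2 difference -0.23, background 26.3% higher and 26.5% lower). Both directions together, the share of these 14 called was below that of all probes in each response. DTL, the substrate receptor that targets p21, fell most, with -2.10 ± 0.11 (adjusted p = 4.02e-12) in the WT-labelled cells at 20 nM and -2.12 ± 0.11 (adjusted p = 7.23e-13) in the KO-labelled cells at 2 nM. SKP2, the F-box protein that targets p27, rose in the KO-labelled cells at 20 nM by 1.19 ± 0.22 (adjusted p = 0.000190), where CDKN1B rose.

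Of 21 tested transcriptional regulators of the CDK inhibitor genes, the WT-labelled cells at 20 nM had 2 higher and 8 lower (median log2 difference -0.31, background 26.1% higher and 25.7% lower), the KO-labelled cells at 20 nM 3 higher and 6 lower (median log2 difference -0.42, background 22.8% higher and 21.9% lower), the WT-labelled cells at 2 nM 8 higher and 1 lower (median log2 difference 0.43, background 21.4% higher and 23.3% lower) and the KO-labelled cells at 2 nM 2 higher and 8 lower (median log2 difference -0.26, background 26.3% higher and 26.5% lower). Both directions together, the share of the 21 called was slightly below that of all probes in each response. SMAD3, a transducer of TGF-beta signals to CDKN2B, fell in all 4 responses, with -1.77 ± 0.19 (adjusted p = 1.36e-07) in the WT-labelled cells at 20 nM and -1.36 ± 0.18 (adjusted p = 1.81e-06) in the KO-labelled cells at 2 nM. FOXO1, an activator of CDKN1B, fell at 20 nM with -1.66 ± 0.16 (adjusted p = 3.47e-08) in the WT-labelled cells, where CDKN1B was not called, and -1.32 ± 0.16 (adjusted p = 1.51e-06) in the KO-labelled cells, where CDKN1B rose. FOXO4, of the same family, rose in the WT-labelled cells at 2 nM by 1.26 ± 0.22 (adjusted p = 8.13e-05) and in the KO-labelled cells at 2 nM by 1.24 ± 0.22 (adjusted p = 6.70e-05). HES1, a repressor that acts on CDKN1B and CDKN1C in mouse tissues, rose in the WT-labelled cells at 2 nM by 0.89 ± 0.31 (adjusted p = 0.0250). ETS2, an activator of CDKN2A, rose in the KO-labelled cells at 20 nM by 1.28 ± 0.23 (adjusted p = 0.000136) and in the WT-labelled cells at 2 nM by 1.25 ± 0.22 (adjusted p = 8.40e-05). ID1, which opposes ETS factors at CDKN2A, fell in the WT-labelled cells at 20 nM with -2.20 ± 0.25 (adjusted p = 2.21e-07), and CBX7, a Polycomb repressor of CDKN2A, fell there with -1.83 ± 0.28 (adjusted p = 1.45e-05).

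Of 15 genes known to be repressed through p21 and the DREAM complex, mostly mitotic, the KO-labelled cells at 2 nM had 0 higher and 14 lower (median log2 difference -1.67, background 26.3% higher and 26.5% lower) and the WT-labelled cells at 20 nM 1 higher and 11 lower (median log2 difference -0.86, background 26.1% higher and 25.7% lower). The KO-labelled cells at 20 nM had 3 higher and 3 lower (median log2 difference 0.11, background 22.8% higher and 21.9% lower) and the WT-labelled cells at 2 nM 3 higher and 4 lower (median log2 difference -0.22, background 21.4% higher and 23.3% lower). BUB1B, a spindle checkpoint kinase, fell most, with -3.85 ± 0.13 (adjusted p = 3.63e-15) in the KO-labelled cells at 2 nM and -2.87 ± 0.14 (adjusted p = 1.32e-12) in the WT-labelled cells at 20 nM. BIRC5, an inhibitor of apoptosis that also acts in mitosis, rose in the KO-labelled cells at 20 nM by 1.43 ± 0.21 (adjusted p = 1.05e-05) and in the WT-labelled cells at 2 nM by 0.81 ± 0.19 (adjusted p = 0.00176). On the treated arrays, 14 of 15 were higher with the KO label at 20 nM and 14 of 15 were lower at 2 nM, opposite to CDKN1A at both doses (background 15.6% higher and 17.3% lower). Of these 15 genes, CCNA2, CCNB1 and CDK1 are also in the list of CDKs and cyclins, and CDC20 in that of turnover. Of 23 tested genes known to be induced by p53, other than CDKN1A, 20 were lower with the KO label at 20 nM and 19 were higher at 2 nM (background 13.7% lower and 15.7% higher), the same directions as CDKN1A. SESN1, a stress-induced inhibitor of mTORC1 signalling, differed with a log2 difference of -4.75 ± 0.28 (adjusted p = 5.18e-11) and 4.42 ± 0.28 (adjusted p = 6.98e-11). In the responses of these 23 genes, the WT-labelled cells at 20 nM had 14 higher and 1 lower (median log2 difference 0.92, background 26.1% higher and 25.7% lower), the KO-labelled cells at 20 nM 3 higher and 3 lower (median log2 difference 0.00, background 22.8% higher and 21.9% lower), the WT-labelled cells at 2 nM 6 higher and 1 lower (median log2 difference 0.31, background 21.4% higher and 23.3% lower) and the KO-labelled cells at 2 nM 22 higher and 0 lower (median log2 difference 2.12, background 26.3% higher and 26.5% lower). TP53INP1, an autophagy and stress-response gene, rose in the KO-labelled cells at 2 nM by 3.60 ± 0.38 (adjusted p = 7.66e-08), and PLK2, a stress-induced polo-like kinase, rose in the WT-labelled cells at 20 nM by 2.47 ± 0.21 (adjusted p = 4.77e-09) and in the KO-labelled cells at 20 nM by 1.52 ± 0.21 (adjusted p = 6.78e-06). On untreated arrays, 11 of the 23 were lower with the KO label in series 1 and 0 higher, against 1 lower and 8 higher in series 2 (background 9.17% lower and 8.87% higher in series 1, 6.01% and 5.60% in series 2).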

How the data were processed

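Total RNA was taken with Trizol, labelled with the Illumina TotalPrep kit and stained with streptavidin-Cy3, per the labels' protocols. The submitters' processing notes name BeadStudio as the software behind the deposited intensities, and the sources used here do not give its version, background correction or normalization. They reach from -27.2 to 27669 with a median of 10.2, and 20.4% lie below 0. Of 22177 probes, 21101 had 1 gene symbol, 0 several and 1076 none.

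Intensities under 10 (49.7% of values at or below it) were set to 10 and the deposited values taken to log2 with no further normalization. Probes above 10 on at least 3 arrays, 12159 in all, were kept. This filter replaced an earlier plan, the 40th percentile of each array (median 5.6), which lies under the floor; it was chosen after seeing the data, and the percentile filter was run as an alternative. One limma model (3.58.1, with statmod 1.5.0 and jsonlite 2.0.0, in R 4.3.3) was fitted over 8 groups of label, treatment and slide series (18 residual and 2.76 prior degrees of freedom), 13 comparisons were drawn from it, and p-values were adjusted by Benjamini-Hochberg over all probes tested, with a call at adjusted p under 0.05. The arrays' number limits the precision. Where every array of a group was at or below 10, the fold is a bound. The code was tested on simulated data. Figures were drawn with matplotlib 3.10.9, and pandas 2.3.3 ran in Python 3.11.15.

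Same-numbered untreated arrays deviated together, with correlations between labels of 0.677 to 0.756 in series 1 and 0.304 to 0.808 in series 2. Those at 20 nM (0.0364 to 0.101) and 2 nM (-0.0472 to -0.0251) did not. The labels give only the numbers and do not say that same-numbered arrays are paired. Arrays of different numbers were not compared in this check. Untreated arrays 4 and 10 stood apart with both labels, so this check cannot tell their shared deviation from a pairing by number.

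The members and gene lists were chosen with earlier results of these data known. Every member probe is described. For other genes the brightest probe was used. Nearest genes are the 5 (CDKN1A) or 3 (members whose brightest tested probe has an SD of at least 0.5 over 26 arrays) with the smallest root mean square difference of mean-centred log2 intensity, and up to 3 called genes by size were named per list and comparison described. Alternatives were floors of 5 and 20, no filter, quantile normalization, the brightest probe per gene, slide as a random block, a replicate block, a fit on 1 series, a trended robust fit, each array left out in turn, and untreated arrays 4 and 10 left out together. Leaving out array 4, array 10, or arrays 5 and 6 alone was added after seeing the data.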

Additional observations from a re-analysis of the deposited data

Results flagged for a closer look

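Among groups of 4 or 7 untreated arrays, a single array stood apart by its gap to the nearest other array in 9 of 33 groups and probes tested. Chance gives about 1 in 20 where groups are independent and above the floor, which does not hold here: the 7 untreated arrays of a label take in the 4 of series 2, and intensities under 10 counted as 10. CDKN1A probe 18874 read 1291 on KO-labelled untreated array 4, against 3330.4 to 4672 on the other 6. It read 1016 on WT-labelled array 10, against 615 to 665 on arrays 7 to 9. CDKN1B read 213.5 on WT-labelled array 10, against 159.6 to 163.9. CDKN2D probe 15521 read 49.05 on KO-labelled array 10, against 72.4 to 77.4. In the other 5 cases, all the other arrays were at or below 10, so any array above 10 stands apart by construction. CDKN1C read 21.59 on WT-labelled array 10, against 8.81 to 9.95, and 17.6 on KO-labelled array 10, against 1.69 to 9.23. CDKN2B probe 8769 read 10.9 on WT-labelled array 10, against 6.49 to 9.29. CDKN2A probe 16613 read 10.66 on KO-labelled array 9, both among all 7 KO-labelled untreated arrays and among the 4 of series 2, where it was the only one above the floor.

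Some member responses differed between the labels or doses by the test of the difference itself. At 2 nM, the KO-labelled minus WT-labelled difference of log2 responses was 1.46 for CDKN1A probe 18874 (adjusted p = 0.0382), 3.44 for CDKN1A probe 18875 (0.00113), -0.86 for CDKN1B (0.00941) and -1.48 for CDKN1C (0.0276). The 20 nM minus 2 nM difference with the WT label was -0.87 for CDKN1B (adjusted p = 0.00837), -2.41 for CDKN1C (0.000724), 0.43 for CDKN2A probe 14016 (0.0143), -0.75 for CDKN2B (0.00346) and -2.88 for CDKN2D (0.0198). With the KO label it was -2.78 for CDKN1A probe 18874 (adjusted p = 0.000225), -3.14 for CDKN1A probe 18875 (0.00242), 0.66 for CDKN1B (0.0357), 0.62 for CDKN2A probe 14016 (0.000731) and -0.63 for CDKN2B (0.0108). The untreated KO-labelled minus WT-labelled difference changed from series 1 to series 2 by 4.87 for CDKN1A probe 18874 (adjusted p = 9.90e-08), 4.50 for CDKN1A probe 18875 (4.32e-05) and -0.61 for CDKN1B (0.0455). The sizes for CDKN1A probe 18875 depend on the floor, since each takes in a group at or below 10. Dose and slide series cannot be told apart in the differences between doses.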

How the results depend on the processing

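Of 54 called changes of single member probes, 38 were called in the same direction under every alternative run. Over 2387 recomputed values of single probes, 2226 stayed on their side of the threshold, 89 were lost, 69 were gained, 3 turned, and 61 uncalled values differed in sign only. Quantile normalization changed no call. The 3 that turned did so without untreated arrays 5 and 6 of both labels: CDKN2D at 20 nM to 0.62 with the WT label and 0.89 with the KO label, and the CDKN1A probe 18874 difference between doses with the WT label to 0.97. Of 9 member probes, those called between labels on untreated arrays of series 2 went from 1 to 3 with a floor of 5, to 2 with a trended robust fit, to 2 in a fit of that series alone, to 3 without arrays 4 and 10, and to 2 without array 10. Those with a label difference of the 20 nM response went from 0 to 5 without arrays 4 and 10, to 3 without array 4, and to 3 without arrays 5 and 6. Those called in the KO-labelled 20 nM response went from 4 to 7 without array 4, with or without array 10. The label difference of the 2 nM response gave 2 with no filter in place of 4. With the brightest probe per gene, 4 in place of 7 were called between labels at 2 nM, 3 in place of 6 in the KO-labelled 2 nM response and 3 in place of 5 in its difference between doses, where fewer probes are tested. With slide as a random block, 4 in place of 7 were called between labels at 2 nM. Leaving out single arrays gave 3 to 3 calls between labels for untreated arrays of series 1, 1 to 2 for series 2, 5 to 5 at 20 nM and 5 to 7 at 2 nM. It gave 4 to 6 (WT label) and 4 to 6 (KO label) in the 20 nM responses, and 5 to 6 and 5 to 6 in the 2 nM responses. The label differences of the responses ranged from 0 to 2 at 20 nM and from 2 to 4 at 2 nM, the differences between doses from 5 to 6 and from 4 to 6, and the change between series from 2 to 3. Except where a count moved through fewer probes, the cause was not tested.

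With a replicate block, 4 member probes were called between labels on untreated arrays of series 2 and 4 in the label difference of the 20 nM response, at -1.10 for CDKN1A probe 18874, 0.67 for CDKN1B, 1.04 for CDKN1C and 0.56 for CDKN2D (adjusted p = 0.000229, 0.00625, 0.00240 and 0.0399). CDKN2D was then called between labels at 20 nM, 0.76 (adjusted p = 0.000404), and at 2 nM, -0.68 (adjusted p = 0.000767), although same-numbered treated arrays did not deviate together. Signal near the floor of 10 limits what CDKN1C, CDKN2B and the dim CDKN1A and CDKN2A probes can show.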
